A study of Homo sapiens with 18 samples.

Results

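The genes described here are those whose annotated span on the chromosome, from start to end, is at least 300 kb and whose reads average at least 1 in every 1000000 reads of a library (counted as CPM) over the 18 libraries. They number 527 of the 19784 genes in the tables. In all, 785 genes are at least 300 kb long, and the other 258 average below 1 CPM. They were chosen by span and by mean level over all libraries, so neither is a finding. At the span limit, RP11-302M6.4 (300111 bases), HSD17B12 (300182) and NOS1AP (300702) lay just inside, and PCBP3 (298761), C14orf37 (298405) and GHR (298102) just outside. At the level limit, MAP2, RBFOX3 and EPHA5, each at 1.01 CPM, lay just inside, and NKAIN2 (0.990 CPM), MAGI1 (0.990) and KCNS3 (0.987) just outside.

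The RNA came from THP-1, an established human monocytic leukaemia line with the MLL-AF9 fusion, and from lines derived from it, and was sequenced after poly(A) selection. The first experiment held the parental line (wt), a line with added PHF8 and a line with added F279S, with 4 libraries each. PHF8 is a histone demethylase that binds a methylated lysine of histone H3 at promoters and removes repressive methyl marks, and F279S is a form of it with a substitution in its catalytic domain. The second experiment held 3 lines with 2 libraries each, taken on day 3. They were ERAA (genotype PHF8AA) and ERDD (genotype PHF8DD), both given 100 nM 4-hydroxytamoxifen (4-OHT), and ERPHF8 (genotype PHF8), for which no treatment is given. The THP-1 background is shared by all 6 groups. The labels give neither the vector, nor whether a line is 1 clone, nor the residues changed in AA and DD, and they do not say that replicate libraries came from separate cultures. The p-values therefore measure the spread between these libraries, which may be technical.

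Human genes of this size are mostly intron, and RNA polymerase takes hours to cross one. Many encode proteins of nerve cells, such as adhesion molecules, axon guidance receptors and synaptic scaffolds, and several lie at common fragile sites, regions that break when replication is slowed. Others, including regulators of small GTPases, kinases and transcription factors, work in blood cells as well. Reads were counted over whole spans here, so intron reads of unspliced RNA count toward a gene.

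The promoters shown are those of the genes with the largest rise and the largest fall in PHF8 against wt (KLF12 and NAV3) and in ERDD against ERAA (SETBP1 and RPS6KA2). Another gene that overlaps RPS6KA2 holds more reads than it does, so whose reads fell there cannot be told apart. Each is the 250 bases before the RefSeq start (build GRCh38.p14), 5′ to 3′ on the strand of the gene. Capitals mark matches on either strand to any of 5 motifs, which are the TATA box TATAAA, the CCAAT box, the GC box GGGCGG, the E box CACGTG and the core of the interferon-stimulated response element.
KLF12, chr13:74306046-74306295, minus strand: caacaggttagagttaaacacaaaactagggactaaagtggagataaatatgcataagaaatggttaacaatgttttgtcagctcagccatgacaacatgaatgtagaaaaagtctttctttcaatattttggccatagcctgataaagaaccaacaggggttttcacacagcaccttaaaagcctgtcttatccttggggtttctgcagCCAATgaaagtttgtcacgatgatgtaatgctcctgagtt
NAV3, chr12:77830644-77830893, plus strand: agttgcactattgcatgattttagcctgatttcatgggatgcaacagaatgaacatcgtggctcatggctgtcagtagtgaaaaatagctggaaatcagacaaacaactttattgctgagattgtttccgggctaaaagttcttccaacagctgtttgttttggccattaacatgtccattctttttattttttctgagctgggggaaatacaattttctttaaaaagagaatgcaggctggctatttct
SETBP1, chr18:44680638-44680887, plus strand: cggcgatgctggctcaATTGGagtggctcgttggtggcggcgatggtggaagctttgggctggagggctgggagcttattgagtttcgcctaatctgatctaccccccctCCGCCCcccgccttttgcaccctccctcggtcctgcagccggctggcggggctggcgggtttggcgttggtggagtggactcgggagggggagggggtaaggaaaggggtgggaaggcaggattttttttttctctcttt
RPS6KA2, chr6:166862526-166862775, minus strand: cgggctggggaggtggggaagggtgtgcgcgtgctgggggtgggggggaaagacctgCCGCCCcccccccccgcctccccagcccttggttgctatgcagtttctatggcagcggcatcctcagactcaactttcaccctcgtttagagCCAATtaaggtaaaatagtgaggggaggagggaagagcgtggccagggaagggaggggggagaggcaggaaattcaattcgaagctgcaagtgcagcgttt

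The promoters of SETBP1 and RPS6KA2 held 62.0% and 61.2% G and C, with 1 CCAAT and 1 GC box each. Those of KLF12 and NAV3 held 38.4% and 38.0%, with 1 CCAAT in KLF12 and no match in NAV3. The RefSeq start lay 11 bases from the deposited start of NAV3 and 715 bases from that of SETBP1, but 172 kb outside the deposited span of KLF12 and 43.9 kb inside that of RPS6KA2. Of the 411 long-span genes whose symbol matched a RefSeq promoter, 70.1% had a RefSeq start within 1 kb of the deposited one and 25.5% had one more than 10 kb away. Among 9825 shorter genes of at least 1 CPM these shares were 85.0% and 7.27%. A GC box was found in 56.9% of the 411 promoters against 42.3% of all 27305, a TATA box in 6.81% against 11.1% and CCAAT in 27.5% against 33.0%. The interferon response core was found in 1.46% against 3.07% and the E box in 6.33% against 6.49%. Median G and C content was 64.0% against 58.0%. The 27305 promoters were not filtered by level, unlike the 411, so span and level cannot be told apart in these differences. A match is only a run of letters and says nothing of a bound factor.

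Libraries held 18239474 to 51517469 reads in genes. The PHF8 gene, which is not among the long-span genes, was at 50.6 ± 3.99 CPM (SD, n = 4) in wt, 2020.5 ± 89.6 in PHF8 and 5381 ± 320.2 in F279S. It was at 2150.4 ± 219 (n = 2) in ERAA, 1109 ± 14.8 in ERDD and 1906 ± 8.51 in ERPHF8, so every line with an added form lay above wt. All 9 monocytic markers averaged above 1 CPM, and their sum was 1436 to 2769 CPM per library. None of the 4 markers each of T cells, erythroid cells and epithelium did, with sums of at most 0.461, 0.762 and 1.58 CPM. Among 4 markers each, ITGA2B of megakaryocytes (sum 0.853 to 5.70 CPM) and COL1A1 and COL1A2 of fibroblasts (0.927 to 35) passed 1 CPM. Libraries 1 and 2 of the first experiment stood apart from libraries 3 and 4 in all 3 lines, and values within these pairs are given where they bear on a result.

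The 527 genes had a median span of 431 kb, against 27 kb over all genes of the tables, and 41 of them reached 1 Mb. Exons covered a median of 1.94% of the span in the 447 genes whose coordinates equal those of GENCODE v29, against 15.9% in shorter genes of at least 1 CPM. Per kilobase of span their median level was 0.0317 RPKM against 1.08 RPKM in shorter genes, and per kilobase of exon it was 1.47 against 6.97 CPM. Reads per gene were closer, with medians of 14.8 and 35 CPM. The long-span genes covered a wide range, with 167 at 1 to 5 CPM and 46 above 100 CPM. Chromosome 3 held 48 of them (9.11%, against 5.39% of all genes), the most of any chromosome.

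**Figure D1:**
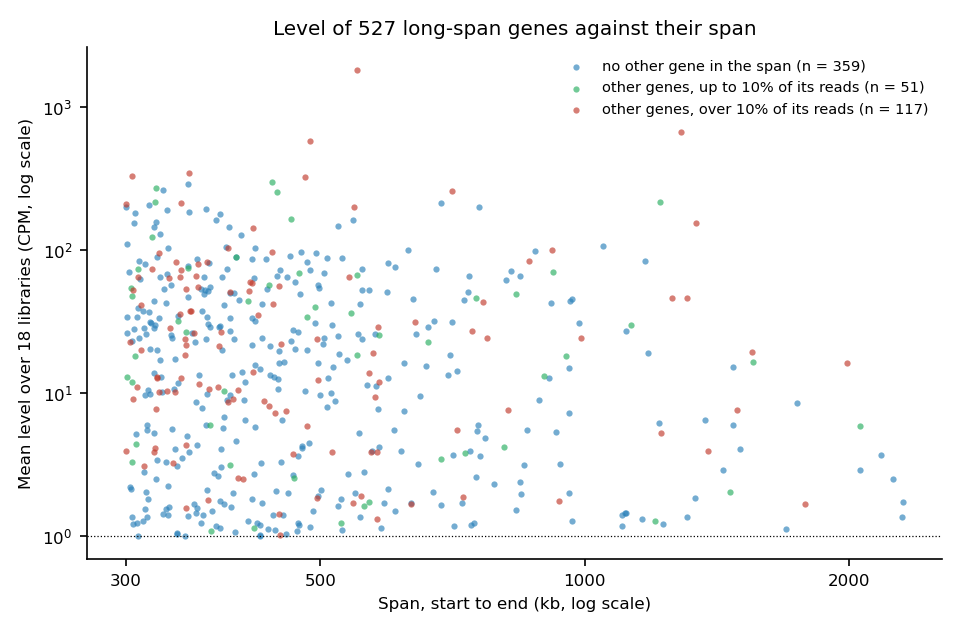
Mean level over 18 libraries in CPM (log scale) against span in kb (log scale), 1 point for each of the 527 genes, coloured by how many reads the genes that overlap the span hold. EIF2B5 is the highest point at 1811 CPM, and the longest gene, CNTNAP2, lies at 1.73 CPM.

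Several of the highest levels came from spans that hold other genes. The genes with the most reads were EIF2B5 (1811 CPM), TBC1D5 (675), ELAVL1 (580.2), JMJD1C (348), ATG10 (331), RP11-613M10.9 (324), SND1 (298) and SH3KBP1 (291). EIF2B5, a subunit of the exchange factor of eIF2 in translation, has a deposited span of 549721 bases but 11075 bases in GENCODE v29. That span encloses 15 other genes, among them EIF4G1 and PSMD2. The reads counted for these genes add up to 95.4% of the reads of EIF2B5, and overlaps below are given in the same way, as reads of the overlapping genes in percent of those of the long gene. ELAVL1, an RNA-binding protein that stabilises messages, has 486463 bases against 47081 in GENCODE v29, and the 12 genes that overlap it, the ribosomal protein gene RPS28 among them, hold 156% of its reads. ATG10, an enzyme of autophagy, overlaps RPS23 (a ribosomal protein gene, 218% of its reads), and TBC1D5, a regulator of membrane traffic, overlaps SATB1 (81.1%). Whose reads these are cannot be told apart. SH3KBP1, an adaptor of receptor endocytosis, overlaps no gene, and the gene inside SND1, a nuclease and coactivator, holds 1.48% of its reads. They stood at 0.822 and 0.677 RPKM, taken over the whole span, and at 50.3 and 45.9 CPM per kilobase of exon.

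In all, 359 of the 527 spans overlap no other gene of the tables, 51 overlap genes that hold up to 10% of their reads, and 117 overlap genes that hold more. In 82 spans the overlapping genes hold at least as many reads as the long gene. The strand setting of the counting is not given in the sources used here, so reads of a gene and of an antisense partner cannot be told apart either. Named genes with an overlap above 10% are marked with it below.

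The 8 longest genes had few reads. CNTNAP2, a neurexin-like adhesion protein of 2305 kb, was at 0.401, 0.618, 2.53 and 3.42 CPM in wt libraries 1 to 4 and at 0.709, 1.27, 3.34 and 1.88 CPM in PHF8. Libraries 3 and 4 lay above libraries 1 and 2 in both lines, and the lines overlapped. PTPRD, a receptor tyrosine phosphatase, averaged 1.37 CPM over 18 libraries, and DMD, the gene of the muscle protein dystrophin, 2.53 CPM. DLG2, a synaptic scaffold, averaged 3.72 CPM, CSMD1, a complement regulator, 2.90 CPM, and CTNNA3, an alpha catenin, 1.68 CPM (12.6% overlap). MACROD2, an ADP-ribose hydrolase at a fragile site, averaged 5.87 CPM. EYS, a matrix protein of photoreceptors, reached 16.3 CPM, but its span overlaps PHF3, which holds 1028% of its reads. Exons made up 0.486% (PTPRD) to 0.908% (CSMD1) of these 8 spans. The split of reads between exons and introns was not measured, since the tables hold 1 value a gene.

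Together the 527 genes took 1.88% to 2.76% of the reads of a library. Their summed level was 20747 ± 1217 CPM in wt, 22183 ± 647 in PHF8 and 20158 ± 1194 in F279S (SD, n = 4). Without regard to the replicate number the groups overlapped, with 19696 to 22349.6 CPM in wt, 21552 to 22929 in PHF8 and 18774 to 21634 in F279S. Libraries of the same number deviate together in this experiment, and so do differently numbered ones of the same library pair. Between libraries of the same number, PHF8 was above wt in 4 of 4, by 579 to 2046 CPM. It was above F279S in 4 of 4, by 1295 to 2777 CPM. F279S minus wt was -1139 to 119.6 CPM, positive in 1 of 4. In the second experiment ERAA had 24249 ± 1715 CPM, ERDD 23263 ± 201 CPM and ERPHF8 26550.3 ± 1489 CPM (n = 2). ERPHF8 was highest, and its lower library (25498 CPM) lay just above the higher one of ERAA (25462 CPM).

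Reads over long spans also differed between libraries of 1 line. The 258 long genes below 1 CPM summed to 51.5, 37.7, 202 and 231 CPM in wt libraries 1 to 4, to 62.8, 83.4, 196 and 147 CPM in PHF8 and to 42.7, 47.3, 169.5 and 134 CPM in F279S. Libraries 3 and 4 of each line lay above its libraries 1 and 2. In the second experiment the ERAA sums were 74.0 and 68.7 CPM, those of ERDD 68.9 and 127 and those of ERPHF8 77.7 and 83.6, with library 2 of ERDD the highest. Replication-dependent histone genes, whose messages carry no poly(A) tail, summed to 66.8, 66.7, 90.9 and 94.1 CPM in wt libraries 1 to 4, 64.1, 67.5, 70.4 and 76.3 in PHF8 and 63.9, 71.8, 93.1 and 92.6 in F279S, also higher in libraries 3 and 4, and their part in the long spans was not tested.

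Among the long-span genes, the 132 with the fewest reads per kilobase (up to 0.00614 RPKM) differed most between the library pairs. They summed to 155, 150.2, 328 and 314 CPM in wt, to 258, 278, 397 and 352 CPM in PHF8 and to 148, 147, 306 and 266 CPM in F279S. Within each pair, both PHF8 libraries lay above both libraries of wt and of F279S. Of 523 long-span genes tested, 65 were at least 2-fold higher without overlap in libraries 3 and 4 of wt and 0 were 2-fold lower, against 4.46% and 0.490% of all genes. In F279S 53 were 2-fold higher and 0 lower (all genes 3.76% and 0.373%), and in PHF8 11 and 0 (all genes 1.02% and 0.0512%). The median log2 difference between the pairs was 0.37 in wt, 0.17 in PHF8 and 0.34 in F279S, and in these 132 genes (128 tested) it was 0.74, 0.38 and 0.65. What set the pairs apart was not tested.

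**Figure D2:**
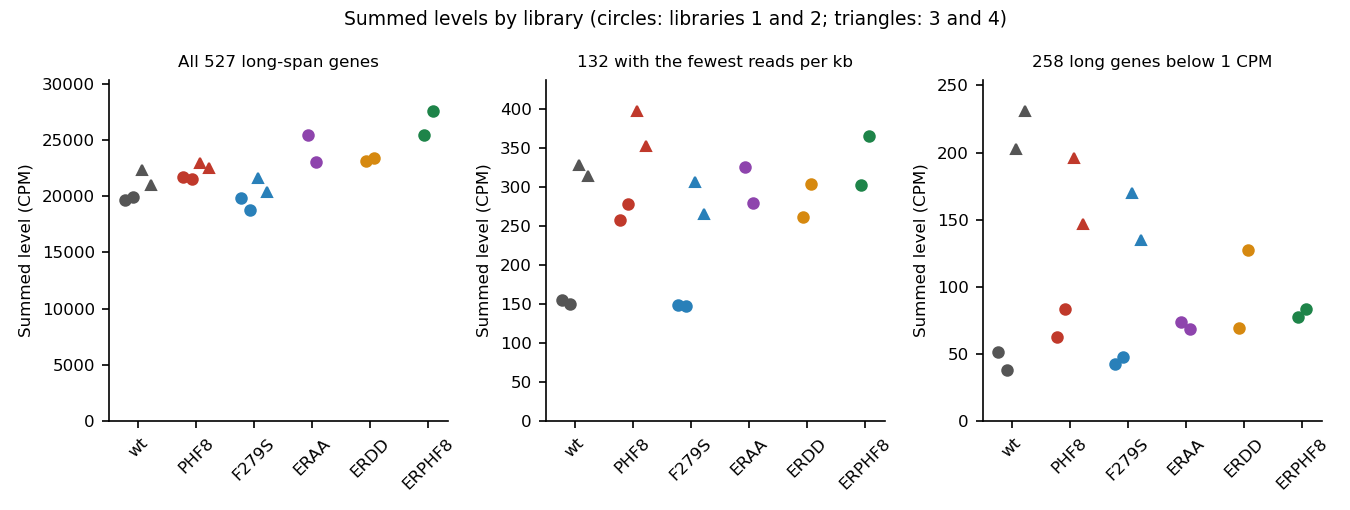
Summed level in CPM of each library in the 6 groups, over all 527 long-span genes, over the 132 with the fewest reads per kilobase and over the 258 long genes below 1 CPM. Libraries 1 and 2 and libraries 3 and 4 have different marks, and in wt the last sum is 51.5, 37.7, 202 and 231 CPM in libraries 1 to 4.

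With added PHF8, more long-span genes rose than fell. The guidance receptor ROBO1, the GTPase regulator DOCK4 and the transcription factor KLF12 rose, while NAV3 and CDH23 (overlap given below) fell. Of 523 tested, 158 passed (135 higher, 23 lower), or 30.2% against a background of 21.0% of all genes. Higher genes made up 25.8% against 12.7%, and lower genes 4.40% against 8.28%. The test was limma on log2(CPM + 0.5) with Benjamini-Hochberg adjustment over all genes tested and a threshold of 0.05. At least 2-fold, 50 passed as higher and 2 as lower, against 2.59% and 0.694% of all genes. The median log2 change was 0.13, against 0.01 over all genes. The spread of this median between libraries was larger (SD 0.165), but that is not the error of a difference between group means. The median was 0.23 within libraries 1 and 2 and 0.09 within libraries 3 and 4. With the replicate number as a block, 270 passed (204 higher, 66 lower, background 41.4%), all 158 among them. Higher genes then made up 39.0% against 22.4% of all genes, and lower genes 12.6% against 19.0%. The median was 0.0773 to 0.23 with 1 library left out, lowest without wt library 2 and highest without wt library 3. It moved by more than 1.5 times without any 1 of the 4 wt libraries or without PHF8 library 3. The lower genes numbered 15 without PHF8 library 1, PHF8 library 2 or wt library 3 (all genes 5.81%, 6.06% and 6.62%). In bulk RNA, fewer cells that express a gene and less RNA per cell cannot be told apart.

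Beside the lists of this comparison stand 12.7% of all genes higher and 8.28% lower, or 22.4% and 19.0% with the replicate block. Transcription factors were 10 higher and 1 lower of 36 tested (median 0.13, 13 and 3 with the replicate block). KLF12, a Krüppel-like repressor (chr13:73686089-74133905), was at 2.40, 2.32, 7.17 and 6.59 CPM in wt libraries 1 to 4, 14.0, 13.8, 19.8 and 23.2 CPM in PHF8 and 3.68, 3.07, 9.37 and 8.15 CPM in F279S. PHF8 was higher than wt in all 4 libraries without overlap, by 1.95 (SE 0.41, adjusted p = 0.0053) on the log2 scale. The rise was 2.33 within libraries 1 and 2 and 1.57 within libraries 3 and 4, and the 2 values differed (adjusted p = 0.0050, limma). TOX, a nuclear factor of T cell development, went from 0.520 ± 0.311 to 2.35 ± 0.327 CPM, a rise of 1.53. Its wt mean lay below 1 CPM and near the 0.5 added before the log, which shrinks this rise. TCF4, a basic helix-loop-helix factor, rose from 10.1 ± 0.754 to 17.5 ± 1.23 CPM, and FOXP2, a forkhead factor, by 0.49 on the log2 scale. JAZF1, a zinc finger cofactor, rose by 0.73, but the overlapping TAX1BP1 holds 1033% of its reads.

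Regulators of small GTPases and the cytoskeleton were 18 higher and 1 lower of 56 tested (median 0.25, 24 and 4 with the replicate block). DOCK4, an activator of Rac and Rap GTPases (chr7:111726110-112206411), was at 2.95, 3.30, 5.16 and 3.51 CPM in wt libraries 1 to 4, 13.6, 12.7, 18 and 16.4 CPM in PHF8 and 3.81, 3.67, 5.67 and 3.96 CPM in F279S. Every PHF8 library lay above every wt and F279S library, and the rise over wt was 1.9 (SE 0.18, adjusted p = 2.5e-05) on the log2 scale. FMNL2, a formin that elongates actin filaments, rose from 18.1 ± 1.32 to 45.5 ± 3.95 CPM, or by 1.31. PARD3, a polarity protein, rose by 0.51 and ANK2, an ankyrin that anchors membrane proteins, by 0.67.

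Adhesion molecules, receptors and matrix genes were 17 higher and 4 lower of 59 tested (median 0.31, 30 and 9 with the replicate block). ROBO1, the receptor for the guidance cue Slit (chr3:78597240-79767815), was at 39.8, 38.7, 36.4 and 35.9 CPM in wt libraries 1 to 4, 105, 101, 94.3 and 95.3 CPM in PHF8 and 37.0, 31.2, 32.7 and 32.2 CPM in F279S. The rise over wt was 1.38 (SE 0.07, adjusted p = 2.5e-07), and it was 1.38 in libraries 1 and 2 and 1.38 in libraries 3 and 4. LTBP1, which binds latent TGF-beta in the matrix, was at 1.10, 1.24, 2.39 and 1.78 CPM in wt and 5.93, 5.10, 9.34 and 8.53 CPM in PHF8, a rise of 1.86 (SE 0.23, adjusted p = 0.00015). No library of LTBP1 overlapped between these lines. ADGRL2, a latrophilin receptor, rose from 116 ± 8.88 to 192 ± 12 CPM, and SPOCK1, a matrix proteoglycan, by 0.72 on the log2 scale.

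Kinases, phosphatases and second messenger genes were 14 higher and 2 lower of 39 tested (median 0.19, 21 and 5 with the replicate block). INPP4B, a lipid phosphatase, rose from 45.3 ± 1.41 to 68.6 ± 4.58 CPM, BANK1, a B cell scaffold, from 20.1 ± 2.14 to 40.6 ± 5.53 and PTPRK, a receptor phosphatase, from 18.2 ± 2.93 to 35.9 ± 1.39. PPP3CA, the catalytic subunit of calcineurin, rose by 0.49 on the log2 scale. Metabolic and glycosylation genes were 11 higher and 5 lower of 37 tested (median 0.17, 18 and 7 with the replicate block). SLC4A4, a sodium bicarbonate transporter, was at 1.70, 1.49, 1.30 and 1.59 CPM in wt and 4.76, 4.77, 4.91 and 4.88 CPM in PHF8, a rise of 1.40 (SE 0.14, adjusted p = 2.9e-05) with no overlap. EXT1, which builds heparan sulfate chains, rose by 0.92 and SGMS1, a sphingomyelin synthase, by 0.63.

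Genes at common fragile sites were 6 higher and 2 lower of 32 tested (median 0.14, 12 and 3 with the replicate block). NEGR1, a neural adhesion protein, was at 3.96, 4.28, 4.64 and 4.76 CPM in wt libraries 1 to 4, 16.6, 15.8, 13.8 and 13.0 CPM in PHF8 and 5.11, 4.72, 4.99 and 5.28 CPM in F279S. The PHF8 libraries lay above all others, and the rise over wt was 1.64 (SE 0.10, adjusted p = 1.2e-06). CTNNA1, the alpha catenin that links cadherins to actin, rose from 157 ± 9.25 to 253 ± 15.6 CPM, and DPYD, which breaks down pyrimidines, changed by -0.47 on the log2 scale. DAB1, an adaptor of reelin signalling, rose by 0.67, and the overlapping OMA1 holds 94.0% of its reads.

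Membrane traffic genes were 7 higher and 1 lower of 26 tested (median 0.09, 11 and 4 with the replicate block). STXBP5L, a syntaxin-binding protein, rose by 1.11, CPQ, a carboxypeptidase, by 0.80 and ERC1, a Rab6-binding scaffold, by 0.32, while SH3KBP1 changed by -0.34. Chromatin, RNA and genome maintenance genes were 5 higher and 1 lower of 24 tested (median 0.06, 8 and 3 with the replicate block). PRIM2, a primase subunit, rose by 0.51, SND1 by 0.30 and JMJD1C, a histone demethylase family member, by 0.35 (overlap with REEP3 42.2%). The lower gene of this list was DENND1A, which is known as an exchange factor of Rab35 in endocytosis, at -0.47. The 215 genes in no list were 47 higher and 6 lower of 214 tested (median 0.08, 67 and 28 with the replicate block).

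Outside the lists, SSBP2, a single-stranded DNA-binding cofactor, was at 7.16, 6.34, 15.4 and 11.9 CPM in wt libraries 1 to 4, 31.8, 30.3, 31.2 and 29.6 CPM in PHF8 and 8.22, 6.41, 12.1 and 11.1 CPM in F279S. PHF8 did not overlap wt, with a rise of 1.63 (SE 0.26, adjusted p = 0.00082). RIMS2, a scaffold of synaptic vesicle release, was at 1.10, 1.03, 4.21 and 3.80 CPM in wt libraries 1 to 4, 7.40, 6.50, 10.4 and 10.6 CPM in PHF8 and 1.08, 1.15, 3.92 and 3.28 CPM in F279S, a rise over wt of 1.77 (SE 0.44, adjusted p = 0.014). In each library pair wt and F279S overlapped and PHF8 lay above both. DOK6, an adaptor of receptor tyrosine kinases, rose by 1.64, with the overlapping CD226 at 181% of its reads, and HS6ST2, a heparan sulfate sulfotransferase, by 1.59.

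Among the 23 lower genes, NAV3, a neuron navigator that binds microtubules (chr12:77830905-78213008), was at 3.15, 2.37, 7.15 and 8.23 CPM in wt libraries 1 to 4, 1.47, 1.07, 0.994 and 1.09 CPM in PHF8 and 2.68, 2.52, 4.40 and 4.19 CPM in F279S. The fall from wt was -1.64 (SE 0.33, adjusted p = 0.0038). It was -0.88 in libraries 1 and 2 and -2.40 in libraries 3 and 4, and these differed (adjusted p = 0.00053, limma). The wt line itself was higher in libraries 3 and 4. CDH23, a cadherin of hair cell tip links (chr10:71396934-71815947), was at 132, 132, 216 and 217 CPM in wt libraries 1 to 4, 66.4, 73.1, 89.8 and 87.8 CPM in PHF8 and 171, 178, 213 and 216 CPM in F279S. All PHF8 libraries were lower than all of wt and F279S, with a change of -1.10 from wt (SE 0.18, adjusted p = 0.0011, limma). The overlapping C10orf105 and C10orf54 hold 83.1% of the reads of CDH23, so whose reads fell cannot be told apart. ADAM12, a metalloprotease, changed by -0.94 and FNDC3B, a fibronectin domain protein, by -0.68, from 92.9 ± 5.93 to 57.7 ± 2.90 CPM. TTN, the gene of the muscle protein titin, went from 62.2 ± 3.93 to 43.6 ± 2.41 CPM. PDE7B, a cyclic AMP phosphodiesterase, changed by -0.84, and its call was lost without PHF8 library 1, wt library 3 or wt library 4. The calls of HMCN1, a hemicentin (-0.72), and CACNA2D3, a calcium channel subunit (-0.74), were lost without any of several single libraries.

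**Figure D3:**
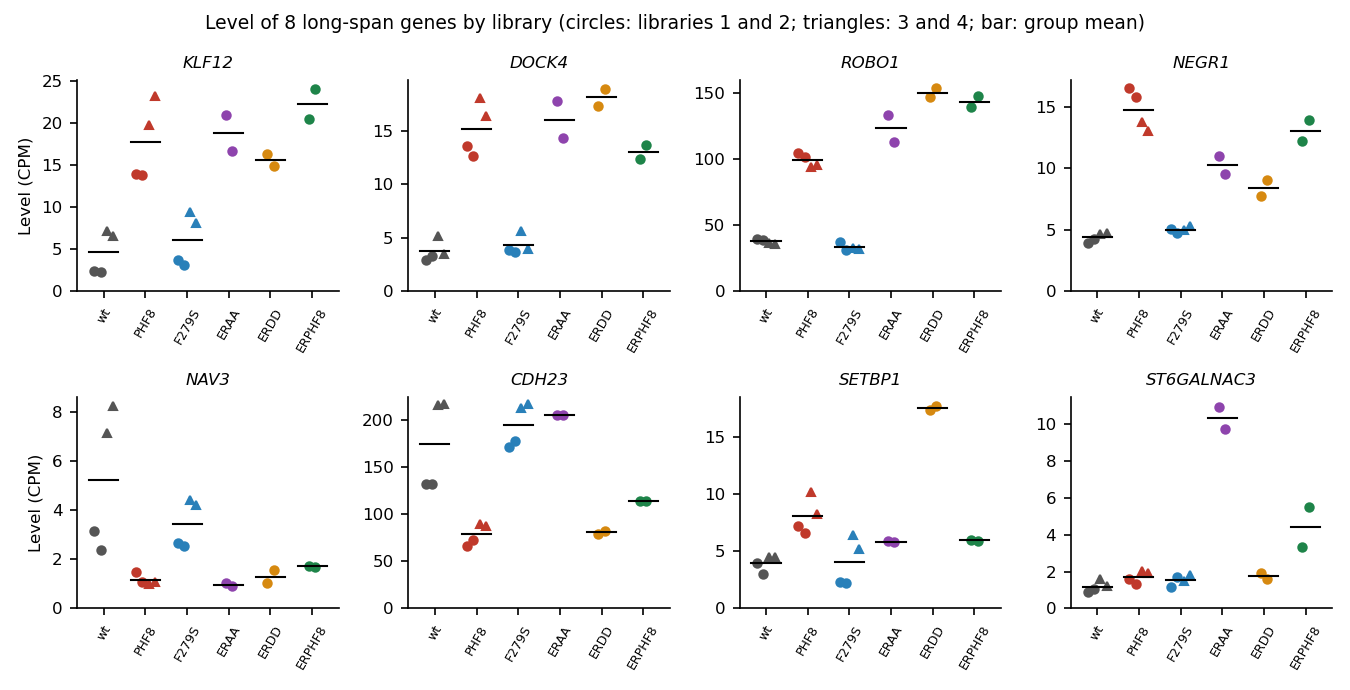
Level in CPM of KLF12, DOCK4, ROBO1, NEGR1, NAV3, CDH23, SETBP1 and ST6GALNAC3 in every library of the 6 groups, 1 mark a library, with different marks for libraries 1 and 2 and libraries 3 and 4. In ROBO1 the PHF8 libraries (94.3 to 105 CPM) lie above wt (35.9 to 39.8), and in KLF12 wt differs between the pairs.

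The count depended on the library pair. Within libraries 1 and 2, 290 genes passed (239 higher, 51 lower), against 51.4% of all genes (27.3% higher and 24.1% lower), with a median change of 0.23. Within libraries 3 and 4, 230 passed (161 higher, 69 lower), against 42.1% of all genes (23.8% higher and 18.3% lower), with a median of 0.09. In 135 genes the call was higher in both pairs, in 29 lower in both and in 9 opposite, against 13.1%, 8.88% and 4.10% of all genes. The change itself differed between the pairs in 118 genes (22.6%), against 30.5% of all genes. In 89 of them (17.0%) it was smaller or more negative in libraries 3 and 4, against 14.4% of all genes. In the other 29 (5.54%) it was more positive there, against 16.1% of all genes. SLC8A1, a sodium-calcium exchanger, changed by -0.97 in libraries 1 and 2 and by 0.38 in libraries 3 and 4 (adjusted p of the difference 1.2e-05, limma).

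**Figure D4:**
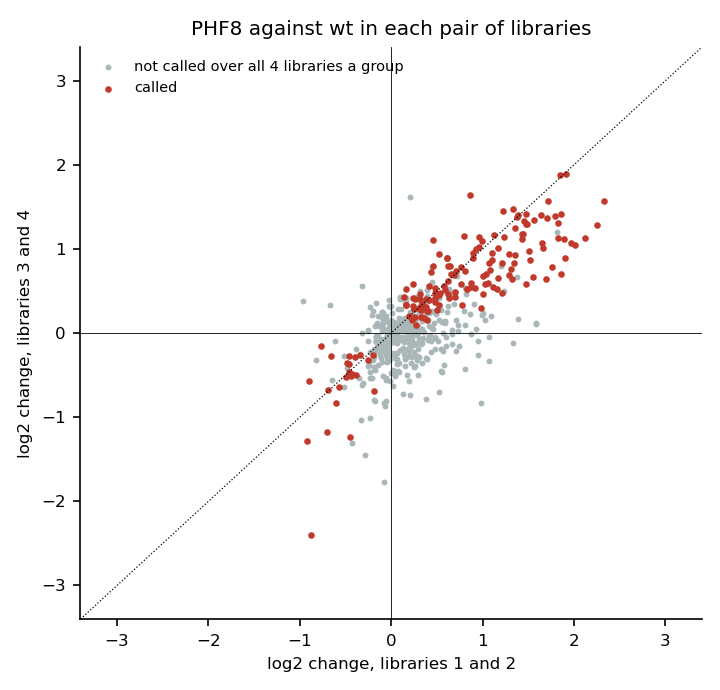
Log2 change of the 523 tested long-span genes in PHF8 against wt within libraries 3 and 4 (vertical axis) against that within libraries 1 and 2 (horizontal axis), 1 point a gene. ROBO1 lies at 1.38 and 1.38, and KLF12 at 2.33 and 1.57.

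The counts in this paragraph are for PHF8 against wt. There 12.7% of all genes were higher and 8.28% lower, or 22.4% and 19.0% with the replicate block. By reads per kilobase of span, the 132 genes with the fewest (128 tested) held 30 higher and 2 lower genes (23.4% and 1.56%, median change 0.35). The next set of equal size held 40 and 4 (30.3% and 3.03%, median 0.17). The set after it held 31 and 8 (23.7% and 6.11%, median 0.08) and the densest 34 and 9 (25.8% and 6.82%, median 0.07). The genes that overlap no other gene were 97 higher and 15 lower of 355 (median 0.17), and those with an overlap above 10% 23 and 4 of 117 (0.08). With the replicate block the 4 sets by reads per kilobase held 55 and 7, 56 and 17, 44 and 20 and 49 and 22 higher and lower genes, the genes with no overlap 149 and 47 and those with an overlap above 10% 35 and 11. A mean below 1 CPM in at least 1 of the 6 groups was found in 68 of the 527 genes, which reached the level limit through other groups. Of the 64 of these that were tested 21 were higher and 3 lower, and of the other 459 genes 114 were higher and 20 lower.

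Added F279S left no long-span gene past the threshold against wt (0 of 523, limma), against a background of 0.0146% of all genes. An unadjusted p below 0.05 was found in 26 of them (4.97%), against 6.37% of all genes. With the replicate block 12 passed (1 higher, 11 lower; background 2.18%, 1.33% higher and 0.848% lower). Within libraries 1 and 2 alone 62 passed (17 higher, 45 lower), against 14.2% of all genes, 7.45% higher and 6.75% lower. Within libraries 3 and 4 0 passed, against 0.0877% of all genes, 0.0439% in each direction. There 59 genes (11.3%) had an unadjusted p below 0.05, against 12% of all genes. The change differed between the pairs in 4 genes, 2 each way, against 0.899% of all genes, 0.519% with a more negative change in libraries 3 and 4. AGBL4, a carboxypeptidase that trims tubulin tails, was at 3.20, 3.30, 20.7 and 17.8 CPM in wt and 1.43, 1.37, 21.0 and 20.7 CPM in F279S. It was lower in F279S in libraries 1 and 2. In libraries 3 and 4 each F279S library lay above the wt library of its number, though 20.7 CPM occurred in both lines. No long-span gene passed within libraries 3 and 4.

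PHF8 was also set against F279S, with the same PHF8 libraries as above. Reads of the PHF8 gene averaged 2020 CPM in PHF8 and 5381 CPM in F279S, so the form and its amount cannot be told apart. Of 523 genes 161 passed (142 higher, 19 lower), 30.8% against a background of 20.1%, with 27.2% against 12.2% higher and 3.63% against 7.92% lower. The median log2 change was 0.22 against 0.02 over all genes. The replicate block gave 282 (234 higher, 48 lower), against 41.1% of all genes, 23.2% higher and 17.8% lower. Without the block 48 passed at least 2-fold higher and 3 lower, against 2.19% and 0.672% of all genes. Within libraries 1 and 2 321 passed (275 higher, 46 lower), against 53.8% of all genes, 29.4% higher and 24.4% lower, and within libraries 3 and 4 222 (178 higher, 44 lower), against 35.2% of all genes, 20.3% higher and 14.9% lower. RIMS2 rose by 1.81 (SE 0.44, adjusted p = 0.013), LTBP1 by 1.75, DOCK4 by 1.72, ROBO1 by 1.56 and NEGR1 by 1.46. CDH23 changed by -1.29 (SE 0.18, adjusted p = 0.00038, limma), with the overlap given above, and FNDC3B by -0.81. The lower genes numbered 12 without F279S library 4 and 11 without PHF8 library 2 (all genes 6.10% and 5.63%). KLF12 rose by 1.57, a call lost without F279S library 1, F279S library 2 or PHF8 library 4. NAV3 changed by -1.23, a call lost without F279S library 3 or 4 or PHF8 library 2 or 3. By list, transcription factors were 10 higher and 0 lower of 36 tested (median 0.29, 16 and 1 with the replicate block), GTPase and cytoskeleton genes 21 higher and 2 lower of 56 tested (median 0.32, 31 and 4 with the replicate block), adhesion genes 18 higher and 3 lower of 59 tested (median 0.42, 31 and 7 with the replicate block) and kinases and phosphatases 12 higher and 1 lower of 39 tested (median 0.16, 19 and 3 with the replicate block). Fragile site genes were 6 higher and 1 lower of 32 tested (median 0.27, 16 and 3 with the replicate block), traffic genes 8 higher and 1 lower of 26 tested (median 0.14, 13 and 2 with the replicate block), metabolic genes 12 higher and 3 lower of 37 tested (median 0.19, 16 and 6 with the replicate block) and chromatin genes 7 higher and 1 lower of 24 tested (median 0.12, 9 and 2 with the replicate block).

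In the second experiment, where both tamoxifen-treated lines carry an altered PHF8, long-span genes differed between ERDD and ERAA in both directions. Of 519 tested, 284 passed (112 higher in ERDD, 172 lower), 54.7% against a background of 68.1%. Higher genes made up 21.6% against 34.8%, and lower genes 33.1% against 33.3%. The median change was -0.08, and the spread of this median between libraries was larger in size (SD 0.089). That spread is not the error of a difference between group means. The balance of directions rested on single libraries. Without ERAA library 1, 153 were higher and 145 lower (all genes 38.5% and 31.9%), with a median of -0.00496. Without ERAA library 2, 97 were higher and 226 lower (all genes 34.8% and 38.3%), with a median of -0.16. Without ERDD library 1 they were 92 and 114 (all genes 27.8% and 26.8%), with a median of -0.04. At least 2-fold, 13 were higher and 24 lower, against 2.28% and 3.82% of all genes. With 2 libraries a group, the test rests on a spread shared by 6 libraries. Reads of the PHF8 gene were at 2150 ± 219 CPM in ERAA and 1109 ± 14.8 CPM in ERDD (SD, n = 2). The form of PHF8 and its amount cannot be told apart here.

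SETBP1, which binds the oncoprotein SET and is mutated in myeloid disease (chr18:44680173-45068510), was at 5.90 and 5.80 CPM in ERAA, 17.4 and 17.7 CPM in ERDD and 5.98 and 5.93 CPM in ERPHF8. ERDD stood above both other lines, by 1.51 (SE 0.07, adjusted p = 1.3e-06) over ERAA and 1.48 over ERPHF8. In the first experiment it was at 3.96, 3.04, 4.47 and 4.52 CPM in wt and 7.20, 6.58, 10.2 and 8.25 CPM in PHF8, a rise of 0.92 whose call was lost when any 1 of these 8 libraries was left out. CNTNAP2 was at 0.983 and 0.804 CPM in ERAA, 2.58 and 4.05 CPM in ERDD and 1.45 and 1.54 CPM in ERPHF8, a rise over ERAA of 1.43 (SE 0.19, adjusted p = 0.00024) at levels of a few CPM. SLC4A4 was at 4.62 and 3.36 CPM in ERAA, 9.65 and 9.23 CPM in ERDD and 6.42 and 7.28 CPM in ERPHF8, a rise of 1.16 (SE 0.14, adjusted p = 0.00013). PLXNA4, a receptor for semaphorins, rose from 16.3 ± 0.631 to 34.2 ± 0.112 CPM (SD, n = 2), and POLA1, the catalytic subunit of DNA polymerase alpha, from 45.3 ± 3.90 to 75.5 ± 0.765 CPM. TIAM1, an activator of Rac, rose by 1.12 on the log2 scale, TCF4 by 0.88 and CACNA2D1, a calcium channel subunit, by 1.20.

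RPS6KA2, a ribosomal S6 kinase (chr6:166409364-166906451), was at 55.0 and 51.2 CPM in ERAA, 8.58 and 9.50 CPM in ERDD and 13.6 and 16.5 CPM in ERPHF8. ERAA stood above both other lines, with a change of -2.49 (SE 0.10, adjusted p = 4.9e-07) in ERDD. The overlapping RP11-514O12.4 holds 1987% of its reads, so its own reads cannot be told apart. ST6GALNAC3, a sialyltransferase, was at 10.9 and 9.70 CPM in ERAA, 1.9 and 1.58 CPM in ERDD and 3.35 and 5.49 CPM in ERPHF8, a change of -2.27 (SE 0.19, adjusted p = 2.4e-05) in ERDD. CADM1, a cell adhesion molecule, was at 5.95 and 5.17 CPM in ERAA, 1.85 and 1.45 CPM in ERDD and 1.28 and 1.10 CPM in ERPHF8, a change of -1.50 (SE 0.14, adjusted p = 3.6e-05). In both genes the 2 ERAA libraries lay above all others of this experiment.

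CDH23 was at 206 and 205 CPM in ERAA, 79.3 and 82.4 CPM in ERDD and 114 and 114 CPM in ERPHF8, a change of -1.34 (SE 0.04, adjusted p = 1.3e-07) in ERDD, with the overlap given above. SSBP2 was at 49.3 and 47.1 CPM in ERAA, 30.8 and 30.6 CPM in ERDD and 38.5 and 42.7 CPM in ERPHF8, a change of -0.64 from ERAA to ERDD. KCNQ3, a potassium channel of the M current, was at 46.8 and 38.0 CPM in ERAA, 18.8 and 19.0 CPM in ERDD and 36.9 and 45.8 CPM in ERPHF8, with ERDD lowest and a change of -1.14. GPC3, a glypican, fell from 109 ± 1.11 to 63.0 ± 0.434 CPM, and LDLRAD4, a brake on TGF-beta signalling, from 88.0 ± 11.9 to 36.2 ± 2.39 CPM. MAML2, a Notch coactivator, changed by -1.23, ZNF536, a zinc finger repressor, by -1.11, INPP4B by -0.65 and AGBL4 by -1.58. ESR1, the oestrogen receptor alpha gene, was at 0.200 to 1.35 CPM in the first experiment and at 275 and 247 CPM in ERAA, 124 and 126 CPM in ERDD and 229 and 230.3 CPM in ERPHF8. The names of these lines hold the letters ER, and reads of an added receptor sequence and of the gene itself cannot be told apart.

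Beside the lists of ERDD against ERAA stand 34.8% of all genes higher and 33.3% lower. Transcription factors were 6 higher and 18 lower of 36 tested (median -0.29). Membrane traffic genes were 3 higher and 12 lower of 26 tested (median -0.20). Fragile site genes were 5 higher and 11 lower of 31 tested (median -0.20). GTPase and cytoskeleton genes were 18 higher and 16 lower of 57 tested (median 0.04), kinases and phosphatases 12 higher and 10 lower of 39 tested (median -0.02) and adhesion genes 16 higher and 22 lower of 58 tested (median -0.17). Metabolic genes were 8 higher and 11 lower of 36 tested (median -0.05), chromatin genes 6 higher and 9 lower of 24 tested (median -0.04) and the genes in no list 38 higher and 63 lower of 212 tested (median -0.06).

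In ERPHF8 against ERAA, a line with no stated treatment against a treated one, 259 of 519 genes passed (205 higher, 54 lower), 49.9% against a background of 53.8%. Higher genes made up 39.5% against 29.7% and lower genes 10.4% against 24.1%, and the median change was 0.19 against 0.04 over all genes. Without ERPHF8 library 2 the count was 138 (90 higher, 48 lower), 26.6% against 35.2% of all genes. Higher genes were then 17.3% against 18.7%, with a median of 0.11. The median was 0.0839 without ERAA library 2, and without ERPHF8 library 1 the lower genes were 29 (all genes 17.4%). The form of PHF8 and the treatment cannot be told apart here. UNC5C, a netrin receptor, was at 32.7 and 24.5 CPM in ERAA, 31.1 and 30.4 CPM in ERDD and 62.3 and 71.4 CPM in ERPHF8, with ERPHF8 above both others and a rise of 1.22 (SE 0.12, adjusted p = 0.00015). KCNQ5, a potassium channel, rose from 13.4 ± 2.78 to 31.5 ± 6.55 CPM, ZNF804A, a zinc finger protein, from 9.10 ± 1.21 to 19.4 ± 3.80 CPM and RIMS2 by 1.18 on the log2 scale. CADM1 changed by -1.84, RPS6KA2 by -1.79 (overlap given above), ITGA9, an integrin subunit, by -1.20 and ST6GALNAC3 by -1.17. GTPase and cytoskeleton genes were 25 higher and 5 lower of 57 tested (median 0.22), transcription factors 14 higher and 5 lower of 36 tested (median 0.24), chromatin genes 14 higher and 1 lower of 24 tested (median 0.35) and fragile site genes 13 higher and 2 lower of 31 tested (median 0.23). Adhesion genes were 17 higher and 10 lower of 58 tested (median 0.10), kinases and phosphatases 11 higher and 7 lower of 39 tested (median 0.09), traffic genes 9 higher and 3 lower of 26 tested (median 0.22) and metabolic genes 13 higher and 3 lower of 36 tested (median 0.06).

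In ERDD against ERPHF8, which shares its libraries with the comparisons above, 291 of 519 genes passed (45 higher in ERDD, 246 lower), 56.1% against a background of 52.8%. Lower genes made up 47.4% against 28.0% and higher genes 8.67% against 24.8%, and the median change was -0.25 against -0.02. As ERDD was treated with 4-OHT and ERPHF8 has no stated treatment, the form of PHF8 and the treatment cannot be told apart here either. Nor can the amount, as reads of the PHF8 gene averaged 1109 CPM in ERDD and 1906 CPM in ERPHF8. Without ERDD library 1 the count was 190 (30 higher, 160 lower), 36.6% against 32.8% of all genes. Without ERPHF8 library 2 it was 178 (28 higher, 150 lower), 34.3% against 32.3%. The higher genes were 21 without ERDD library 2 and 25 without ERPHF8 library 1 (all genes 14.8% and 17.4%). SORCS2, a sorting receptor for neurotrophins, was at 15.4 and 15.1 CPM in ERAA, 5.80 and 7.0 CPM in ERDD and 20.8 and 21.3 CPM in ERPHF8, with ERDD lowest and a change of -1.65 (SE 0.09, adjusted p = 9.7e-06). ZBTB20, a zinc finger repressor, changed by -1.62, ZNF385D, a zinc finger protein, by -1.47, and UNC5C by -1.11. SLC8A1 was at 42.2 and 36.8 CPM in ERAA, 76.9 and 77.0 CPM in ERDD and 30.2 and 32.2 CPM in ERPHF8, higher in ERDD by 1.29 (SE 0.07, adjusted p = 9.0e-06), MSR1, a macrophage scavenger receptor, rose by 1.14 and NRCAM, a neuronal adhesion molecule, by 1.13. Transcription factors were 0 higher and 23 lower of 36 tested (median -0.47), traffic genes 0 higher and 16 lower of 26 tested (median -0.31), chromatin genes 1 higher and 15 lower of 24 tested (median -0.30) and fragile site genes 4 higher and 17 lower of 31 tested (median -0.44). Adhesion genes were 9 higher and 23 lower of 58 tested (median -0.26), GTPase genes 6 higher and 20 lower of 57 tested (median -0.16), kinases 4 higher and 15 lower of 39 tested (median -0.12) and metabolic genes 6 higher and 12 lower of 36 tested (median -0.17).

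To set the long-span genes beside the rest, all tested genes were put in 4 classes of span, below 30 kb, 30 to 100 kb, 100 to 300 kb and 300 kb or more. The longest class held 559 genes in the first experiment, since it takes in tested genes whose mean over all libraries is below 1 CPM. In PHF8 against wt the median log2 change was -0.03, 0.02, 0.08 and 0.13 from the shortest class to the longest, and the share called higher was 8.77, 12.9, 20.9 and 24.3%. The medians were -0.03, 0.01, 0.10 and 0.23 within libraries 1 and 2 and -0.02, 0.02, 0.07 and 0.05 within libraries 3 and 4, where the longest class no longer had the highest median. In PHF8 against F279S the medians were -0.03, 0.03, 0.11 and 0.20, and in F279S against wt 0.01, -0.01, -0.03 and -0.06. In ERPHF8 against ERAA they were -0.04, 0.08, 0.13 and 0.19, in ERDD against ERPHF8 0.05, -0.04, -0.12 and -0.25 and in ERDD against ERAA -0.01, 0.02, 0.00 and -0.07. The share called lower in ERDD against ERPHF8 was 21.2, 30.7, 38.1 and 46.3%. On log2(RPKM + 0.1), the scale of the deposited values, the median of the longest class was 0.01 in PHF8 against wt, 0.02 in PHF8 against F279S and -0.05 in ERDD against ERPHF8, and the medians followed no order by span in any of the 6 comparisons. The median level of the long-span genes (0.0317 RPKM) lies below that pseudocount of 0.1, which shrinks their changes by construction. With 1 library left out, the order in F279S against wt was also lost without F279S library 1 or 2 or wt library 3 or 4, and the longest class was at 0.0151 without F279S library 2 and 0.0188 without wt library 3. In ERDD against ERAA the medians rose with span with no filter on low values (longest class 0.0548) and fell with span without ERAA library 2 (-0.15), and without ERAA library 1 the longest class was at 0.00. The comparisons share libraries, and the classes were not tested against each other.

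**Figure D5:**
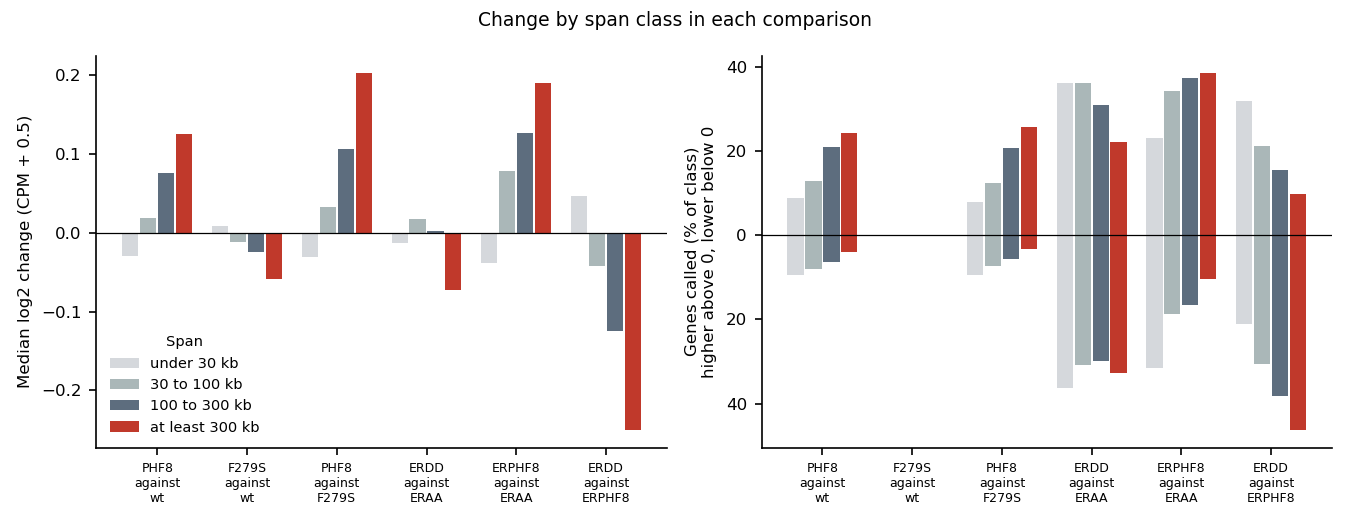
Left, median log2 change of all tested genes in 4 classes of span for the 6 comparisons. Right, share of each class called higher (above 0) or lower (below 0), in percent. In PHF8 against wt the medians run from -0.03 in genes below 30 kb to 0.13 in genes of 300 kb or more, and in ERDD against ERPHF8 from 0.05 to -0.25.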

How the data were processed

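Poly(A) RNA of 18 libraries was analysed. The build is hg38, and the tools named in the submitters' processing notes are STAR 2.7.0c, DESeq2 and SAMtools 1.9. Neither the counting tool nor its strand setting and annotation is given in the sources used here. The deposited values are RPKM. The values show that they were divided by the whole span of a gene, introns included, since multiplying by span in kilobases gave CPM from which whole reads were recovered for 100% of values within 0.001, 18239474 to 51517469 a library. The test was limma 3.58.1 (R 4.3.3, trend) on log2(CPM + 0.5), for genes that reached 1 CPM in 4 or more of the 12 libraries of one experiment (13683 genes, 523 of them long-span) or in 2 or more of the 6 of the other (13831 and 519). The fit was also run on simulated counts, with the same spread for every gene and no difference between library pairs. That run says nothing of such features in these data. The 2 experiments were not tested against each other.

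In the first experiment same-numbered libraries deviated together (r 0.484 to 0.908 for every pair). Whether the numbers also pair them within libraries 1 and 2 or 3 and 4 is not settled, as the values were mixed. Library 2 of wt had 0.809 with F279S library 2 and 0.819 with F279S library 1. With PHF8 library 2 it had 0.498 and with PHF8 library 1 0.55. Library 3 of wt had 0.908 with F279S library 3 and 0.729 with F279S library 4. The fit without the block is the one reported, with the block beside the counts of all long-span genes, of the lists and of the sets by reads per kilobase or overlap. Differently numbered libraries of the same library pair also correlated (0.235 to 0.819).

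The genes and the lists were chosen with earlier results of these data known. Genes named are those of the largest changes each way in each comparison among calls with no overlap of the groups, the highest, the longest, up to 4 of each list by smallest p in PHF8 against wt and in ERDD against ERAA, and those beside the limits. The result of 1 marker list is not reported here. Promoters came from RefSeq (GRCh38.p14) and exon lengths from GENCODE v29.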

Additional observations from a re-analysis of the deposited data

Results flagged for a closer look

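In 7 of 333 groups of 4 libraries examined, 1 library stood apart from the other 3 by more than Dixon's 95% limit on the gap as a share of the range. If the 4 libraries did not fall into pairs, chance alone would flag about 1 in 20 groups, more than were found. Where libraries 1 and 2 stand apart from libraries 3 and 4, a single library is flagged less often. That rate therefore does not say whether the 7 are beyond chance. DOCK4 was at 5.67 CPM in F279S library 3, with the others at 3.67 to 3.96. DOK6 was at 2.22 CPM in PHF8 library 2 against 2.97 to 3.09, and TOX in the same library at 2.84 CPM against 2.16 to 2.23. IL1RAPL2, a synaptic receptor-like protein, was at 0.994 CPM in PHF8 library 3 against 0.617 to 0.659. EYS was at 16.7 CPM in PHF8 library 1 against 18.9 to 19.2. In wt library 3, CELF2, a splicing regulator, was at 245 CPM against 211 to 216, and SLC39A11, a zinc transporter, at 69.5 CPM against 61.4 to 62.3.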

How the results depend on the processing

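No call of a named gene reversed its direction under the alternatives run. The median change in F279S against wt, which is close to 0, took either sign with 1 library left out. With the replicate block the counts of genes called were 270 in PHF8 against wt, 12 in F279S against wt and 282 in PHF8 against F279S (without it 158, 0 and 161), and with the library pair as a factor 261, 9 and 278 (all genes 40.9%, 2.18% and 40.7%). Within libraries 1 and 2 alone they were 290, 62 and 321. The share of the class of 300 kb or more called moved in the same comparisons from 28.4%, 0% and 29% to 48.7%, 2.10% and 51.2% with the replicate block, 47.0%, 1.60% and 50.4% with the pair as a factor, and 53.0%, 11.3% and 58.1% in libraries 1 and 2.

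In the second experiment the replicate numbers do not pair the libraries, and the block gave 265, 223 and 264 genes in ERDD against ERAA, ERPHF8 against ERAA and ERDD against ERPHF8 (all genes 65.6%, 49.9% and 49.2%). A crossed replicate block, with the ERPHF8 numbers swapped and chosen after seeing the data, gave 310, 306 and 323, 59.7%, 59.0% and 62.2% of the long-span genes against 70.0%, 56.8% and 55.6% of all genes. On log2(RPKM + 0.1) these comparisons had 170, 132 and 182 genes (all genes 65.8%, 51.2% and 50.2%) and longest-class shares of 31.9%, 24.6% and 34.0%, since the pseudocount exceeds most long-span levels. The medians on this scale were 0.027 in PHF8 against F279S, 0.026 in ERPHF8 against ERAA and -0.052 in ERDD against ERPHF8. With no filter on low values the shares were 36.4%, 26.2% and 33.1%, over a class that then holds nearly silent genes.

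A span limit of 200000 or 500000 bases changes the number of genes by construction. The counts were then 299 or 49 in PHF8 against wt and 305 or 48 in PHF8 against F279S, of 1018 or 189 tested. The shares were 29.4% or 25.9% (all genes 21.0%) and 30.0% or 25.4% (all genes 20.1%). In the second experiment 1015 or 185 were tested. The counts there were 578 or 101 in ERDD against ERAA, 516 or 90 in ERPHF8 against ERAA and 577 or 104 in ERDD against ERPHF8. Over all genes 68.1%, 53.8% and 52.8% passed in the same order. In ERDD against ERAA the shares were 56.9% or 54.6%. The share of reads in the long-span genes, 2.23% on average, became 5.04% or 0.773%, and 1.15% over the genes that overlap no other. Over those genes 183 of 352 tested passed in ERDD against ERAA (52.0%, all genes 68.1%).

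Leaving out 1 library at a time gave 121 to 160 genes in PHF8 against wt, 0 to 0 in F279S against wt, 130 to 170 in PHF8 against F279S, 206 to 323 in ERDD against ERAA, 138 to 329 in ERPHF8 against ERAA and 178 to 372 in ERDD against ERPHF8, in the second experiment with 1 library left in a group and assumed to vary like the others. All genes called then ran over 16.2 to 20.9%, 0.0146%, 15.1 to 21.2%, 53.9 to 73.1%, 35.2 to 63.3% and 31.1 to 66.5% in the same order. The longest-class shares ran over 25.9 to 61.9% in ERPHF8 against ERAA and 34.1 to 71.1% in ERDD against ERPHF8, and the median change over 0.077 to 0.23 in PHF8 against wt and -0.131 to 0.012 in F279S against wt. limma voom on the recovered reads, added after seeing the data, called 158, 0, 168, 272, 256 and 289 genes in the 6 comparisons (all genes 20.7%, 0.0146%, 20.9%, 67.8%, 53.7% and 52.6%). The planned negative binomial tests were not run. Of 322 calls of named genes, 210 held under every setting run, 94 were lost with 1 library left out and 15 with the replicate block. At a few CPM, counting error limits what 2 or 4 libraries can show.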

Other observations

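KCNQ3, described above for the second experiment, was at 7.21, 7.57, 16.3 and 12.3 CPM in wt and 23.7, 24.3, 39.1 and 37.7 CPM in PHF8, a rise of 1.52 (SE 0.33, adjusted p = 0.0059) on the log2 scale. Both groups varied between the library pairs and did not overlap. KCNQ1, a cardiac potassium channel, changed by -1.16 in ERDD against ERAA. In the same comparison COL24A1, a fibrillar collagen, rose by 1.14, and XYLT1, an enzyme that starts proteoglycan sugar chains, changed by -0.72.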
